A study of Mus musculus with 16 samples.

Results

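The mitochondrial carriers of the SLC25 family were followed in mouse hearts after ischemia and reperfusion. The genes were chosen by name, as every gene symbol made of Slc25a and a number, with earlier results of these data known. That rule was met by 46 of the 19505 named genes on the arrays, each through a single probe set. The 3 groups of reperfused hearts were set against sham-operated hearts, all from wild-type C57BL/6 male mice aged 10 weeks, with 4 hearts and 4 arrays per group. In the reperfused groups the left anterior descending coronary artery was ligated for 30 min, and reperfusion lasted 6, 24 or 72 h. The sham arrays served as the comparison for every time, and their labels give no hour, so time after surgery and time of reperfusion cannot be told apart. RNA came from hearts, and the labels do not state which region was sampled. In such bulk RNA, fewer cells of a type and less RNA per cell cannot be told apart.

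SLC25 carriers are small proteins of the inner mitochondrial membrane that swap or import solutes, and most are built from a repeated pair of membrane helices. They move ATP out of the matrix and ADP and phosphate in, pass carboxylates, amino acids and acylcarnitines between matrix and cytosol, and bring in cofactors and iron that the matrix cannot make for itself. Heart muscle, which lives on fatty acid oxidation and oxidative phosphorylation, is rich in the adenine nucleotide, phosphate, aspartate/glutamate, oxoglutarate and carnitine carriers. A few members lie elsewhere, such as Slc25a17 in peroxisomes and Slc25a46 in the outer mitochondrial membrane.

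Expression is given as the deposited log2 signal of a probe set, and a change is the difference of 2 group means on that log2 scale with its standard error (SE). Every p-value of a change is from limma, adjusted by the Benjamini-Hochberg method over all 19505 genes, and a change is called at an adjusted p below 0.05. The number of arrays limits the precision, with a median SE of 0.18 for a log2 change. A signal of 6.76, below which 75% of the negative control probe sets lay, was taken as background. The group mean lay above it in all 4 groups for 27 members, in some groups for 6 and in none for 13. Those 13 dim members were Slc25a2, Slc25a14, Slc25a18, Slc25a21, Slc25a29, Slc25a31, Slc25a41, Slc25a43, Slc25a45, Slc25a47, Slc25a48, Slc25a53 and Slc25a54. Signals of different probe sets are not compared with each other as levels.

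The labelled tissue was checked on marker genes. All 7 cardiomyocyte markers lay above background in every group, and their mean log2 signal per array spanned 17.78 to 17.90 in 6 h hearts, 17.38 to 17.69 in 24 h hearts and 17.62 to 17.81 in 72 h hearts, against 17.87 to 17.94 in sham hearts. Of these 7 markers 0 were called at 6 h, 3 were lower at 24 h and 2 were lower at 72 h, whereas hybridization centring gave 1 lower at 24 h and 3 higher and 0 lower at 72 h, and poly-A centring 1, 2 and 0 lower at 6, 24 and 72 h. On the deposited scale, of the 7 neutrophil markers 6, 7 and 2 were higher at 6, 24 and 72 h, and of the 6 measured monocyte and macrophage markers 2, 6 and 6 were higher. Of the 5 measured fibroblast markers 1, 4 and 5 were higher at those times, with 1 lower at 6 h. Of the 5 endothelial markers 1 was higher at 6 h, and Kdr was the 1 lower marker at every time. Of the 2 measured erythroid markers 0, 0 and 1 were lower. Of the 4 measured markers of dividing cells 0, 3 and 4 were higher. At 24 h, replicate 16 had a mean of 12.12 over the 5 atrial markers, where the other 3 arrays of its group lay between 7.88 and 7.92, and replicate 17 lay apart on the leading principal component at 10.8, where the other 3 lay between 35.1 and 40.7. Group means of the spike-in controls also differed, at 10.76, 10.23 and 10.04 for the hybridization spike-ins at 6, 24 and 72 h, against 10.54 in sham hearts.

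**Figure D1:**
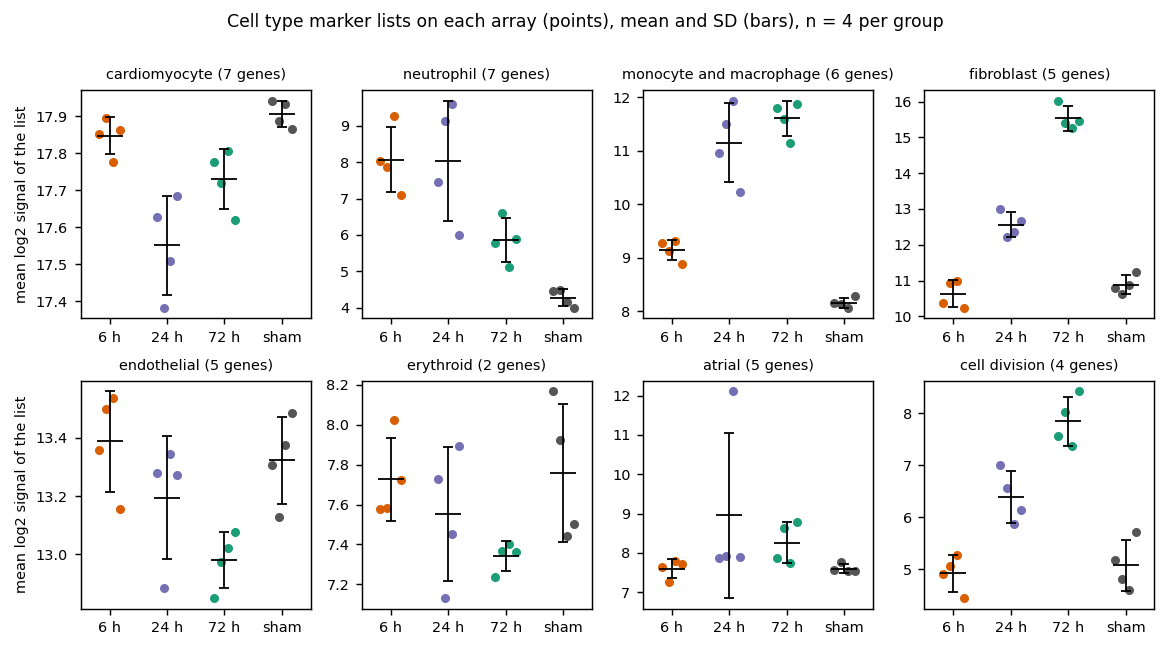
Mean log2 signal of 8 cell type marker lists on each array (points) in hearts at 6, 24 and 72 h of reperfusion and in sham hearts, with the group mean and SD (bars, n = 4 per group). The cardiomyocyte mean is lowest at 24 h (17.38 to 17.69), the fibroblast mean is highest at 72 h, and 1 array at 24 h stands apart on the atrial list.

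On the deposited scale fewer SLC25 genes rose than fell in each comparison with sham, an order that turned at 24 and 72 h when arrays were centred on the hybridization spike-ins, and at 72 h on the poly-A spike-ins. At 6 h, 2 of 46 members (4.35%) were called higher, beside 7.92% of all genes, and 11 (23.9%) were called lower, beside 12.3%. At 24 h, 4 members (8.70%) were higher, beside 13.8% of all genes, and 14 (30.4%) were lower, beside 12.3%. At 72 h, 3 members (6.52%) were higher, beside 11.5%, and 8 (17.4%) were lower, beside 10.3%. The median change of the members was -0.21, -0.23 and -0.20 at 6, 24 and 72 h, and that of all genes was -0.04, -0.07 and -0.09. Over the 4 groups, 29 of 46 members differed by the limma F test, beside 44.5% of all genes. Of the 46 members, 18 were called at no time against sham, 8 at 6 h only, 7 at 24 h only, 2 at 72 h only, 2 at 6 and 24 h, 6 at 24 and 72 h, and 3 at all 3 times. Of the 46, 0 were called in opposite directions at 6 and 24 h. The shares of all genes with these time patterns are not given, so the counts cannot be read as particular to the carriers. With 24 h replicates 16 and 17 both left out, 5 members were higher and 10 lower at 24 h.

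The split between higher and lower calls depended on how the arrays were scaled. With each array centred on the hybridization spike-ins, 2 members were higher and 19 lower at 6 h, 8 higher and 7 lower at 24 h, and 12 higher and 2 lower at 72 h. With centring on the poly-A spike-ins, 2 were higher and 23 lower at 6 h, 3 higher and 14 lower at 24 h, and 3 higher and 2 lower at 72 h. The same centrings moved the median of all genes to -0.26, 0.24 and 0.40 (hybridization) and to -0.37, -0.16 and 0.09 (poly-A) at 6, 24 and 72 h. The share of all genes called under these centrings is not given, here or below. The centred counts can therefore not be read as particular to the carriers. Of the 11 calls of lower members at 6 h, 11 were kept under both centrings, as were 7 of 14 at 24 h and 2 of 8 at 72 h, and of the higher calls 2 of 2, 3 of 4 and 3 of 3 were kept. The 7 falls at 24 h kept under both were those of Slc25a12, Slc25a13, Slc25a20, Slc25a22, Slc25a34, Slc25a39 and Slc25a42, and the 2 at 72 h were those of Slc25a22 and Slc25a42.

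**Figure D2:**
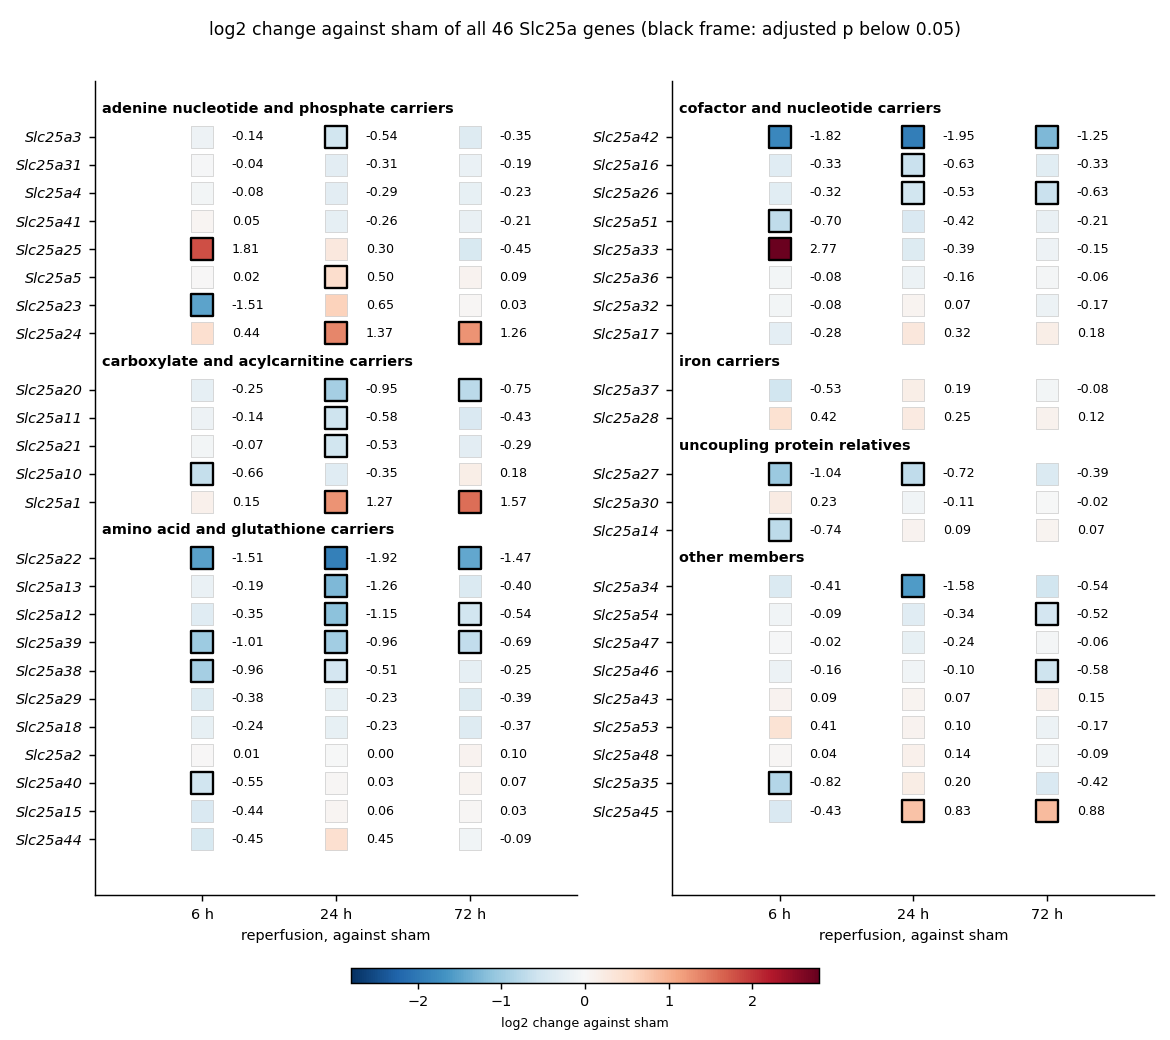
Log2 change against sham of all 46 Slc25a genes at 6, 24 and 72 h of reperfusion, grouped by the solute carried, with blue lower, red higher and a black frame where the adjusted p was below 0.05 (4 arrays per group). Slc25a25 and Slc25a33 are framed red at 6 h, and Slc25a22, Slc25a39 and Slc25a42 are framed blue at every time.

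Among the carriers of the ATP cycle, Slc25a5 rose and Slc25a3 fell at 24 h, each by less than 1 on the log2 scale, and each call was lost under 1 of the spike-in centrings. Slc25a4, the adenine nucleotide translocase of heart and skeletal muscle, which exchanges matrix ATP for cytosolic ADP, had log2 signals of 18.48, 18.57, 18.28 and 18.40 at 6 h, 18.30, 18.05, 18.17 and 18.38 at 24 h and 18.20, 18.30, 18.43 and 18.19 at 72 h, against 18.50, 18.44, 18.58 and 18.53 in sham hearts. The 24 and 72 h arrays all lay below the 4 sham arrays, but the change of -0.29 ± 0.13 (adjusted p = 0.105) did not pass the test, nor did -0.08 ± 0.13 (adjusted p = 0.765) at 6 h or -0.23 ± 0.13 (adjusted p = 0.211) at 72 h. Slc25a5, the translocase form known from dividing and non-muscle cells, had 16.36, 16.77, 16.30 and 16.41 at 6 h, 16.86, 17.05, 17.0002 and 16.88 at 24 h and 16.69, 16.49, 16.37 and 16.58 at 72 h, against 16.55, 16.27, 16.44 and 16.53 in sham hearts. All 4 arrays at 24 h lay above all sham arrays, and the 6 and 72 h arrays overlapped them. Slc25a5 rose at 24 h by 0.50 ± 0.14 (adjusted p = 0.0092), and its changes were 0.02 at 6 h and 0.09 at 72 h. The rise missed the threshold with poly-A centring, at 0.41 and an adjusted p of 0.108. Hybridization centring called Slc25a5 higher at 72 h as well. Markers of dividing cells (3 of 4) and of monocytes and macrophages (6 of 6) were also higher at 24 h, as were 4 of 4 and 6 of 6 at 72 h. The part of these cells in the rise of Slc25a5 was not tested. Slc25a3, which brings phosphate, and also copper, into the matrix, had 17.15, 17.18, 17.30 and 17.27 at 6 h, 16.90, 16.74, 16.62 and 17.01 at 24 h and 17.03, 17.10, 17.06 and 16.84 at 72 h, against 17.41, 17.34, 17.42 and 17.27 in sham hearts. Its arrays at 24 and 72 h lay below every sham array. Slc25a3 fell at 24 h, with a change of -0.54 ± 0.13 (adjusted p = 0.00283), and the change at 72 h of -0.35 ± 0.13 (adjusted p = 0.0508) just missed the threshold. The fall at 24 h was -0.24, with an adjusted p of 0.322, under hybridization centring. Slc25a31, the translocase form known from testis, was below background in every group.

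The calcium-regulated ATP-Mg/phosphate carriers adjust the total adenine nucleotide content of the matrix, and they did not move together. Against sham, Slc25a25 was called higher and Slc25a23 lower at 6 h, and Slc25a24 was called higher at 24 and 72 h. Slc25a25 had log2 signals of 6.91, 6.999, 7.34 and 6.28 at 6 h, 5.39, 5.58, 5.60 and 4.94 at 24 h and 4.70, 4.71, 4.45 and 4.61 at 72 h, against 5.60, 5.50, 4.65 and 4.54 in sham hearts. Of the 6 h arrays, 3 stood above background, the 6 h group lay apart from sham, and all later and sham arrays were below background. Slc25a25 rose at 6 h by 1.81 ± 0.25 (adjusted p = 2.02e-05). Because sham hearts were below background, the ratio to sham can be stated only as at least 1.09-fold. Slc25a23 had 8.18, 8.95, 8.95 and 9.64 at 6 h, 10.85, 12.18, 10.53 and 10.78 at 24 h and 10.86, 10.07, 10.56 and 10.36 at 72 h, against 10.64, 10.18, 10.54 and 10.39 in sham hearts. The 6 h arrays all lay below the sham arrays, while the 24 and 72 h groups overlapped sham. Slc25a23 fell at 6 h, with a change of -1.51 ± 0.31 (adjusted p = 0.00137), and its change was 0.65 ± 0.31 (adjusted p = 0.136) at 24 h and 0.03 at 72 h. Replicate 15 supplied the high value of 12.18 at 24 h, and hybridization centring called Slc25a23 higher at 24 h. Slc25a24 had 9.10, 10.03, 9.79 and 9.19 at 6 h, 10.54, 10.72, 10.52 and 10.04 at 24 h and 10.46, 10.50, 10.23 and 10.21 at 72 h, against 9.12, 9.09, 8.96 and 9.19 in sham hearts. All arrays at 24 and 72 h lay above sham, and those at 6 h overlapped it. Slc25a24 rose by 1.37 ± 0.19 (adjusted p = 2.96e-05) at 24 h and by 1.26 ± 0.19 (adjusted p = 8.30e-05) at 72 h, a gain of 2.58-fold and 2.39-fold, and its change at 6 h was 0.44 ± 0.19 (adjusted p = 0.13). The rises of Slc25a24 at 24 and 72 h coincided with higher monocyte and macrophage markers (6 of 6 at both times) and fibroblast markers (4 and 5 of 5), whose part in it was not tested. Slc25a41, a short relative, was below background.

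Slc25a33, a pyrimidine nucleotide carrier of the inner membrane that is induced by insulin and IGF-1 signalling in cultured cells, was 1 of the 2 members called higher at 6 h. Its log2 signals were 8.73, 7.28, 7.88 and 8.29 at 6 h, 5.10, 4.88, 4.53 and 5.05 at 24 h and 4.97, 5.15, 5.17 and 5.24 at 72 h, against 5.20, 5.45, 5.18 and 5.28 in sham hearts. All 6 h arrays were above background, and every other array was below it. Slc25a33 rose at 6 h by 2.77 ± 0.22 (adjusted p = 3.42e-08), which against background is at least 2.43-fold. Of 7 neutrophil markers 6 were higher at 6 h and 7 at 24 h against sham, and between 6 and 24 h 2 were higher and 2 lower. The part of these cells in the changes of Slc25a33 was not tested. Between 6 and 24 h Slc25a33 fell by 3.16 ± 0.22 (adjusted p = 1.02e-08), which against background is likewise at least 2.43-fold. Its closest relative in function, Slc25a36, did not follow, with changes of -0.08, -0.16 and -0.06 at 6, 24 and 72 h (adjusted p = 0.774, 0.448 and 0.825).

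Slc25a25 and Slc25a33 were the 2 members called higher at 6 h, and the sequence before their transcription starts is shown for that reason, from RefSeq on build GRCm38.p6. Both are the 250 bases before an annotated start, written along the gene: Slc25a25 at chr2:32424067-32424316 on the minus strand, and Slc25a33 at chr4:149774268-149774517 on the minus strand. Capitals mark TGACGTCA, the cAMP response element known to bind CREB and ATF factors, its shorter core TGACG on either strand, and CACGTG, the E-box known to bind MYC and related factors.
Slc25a25: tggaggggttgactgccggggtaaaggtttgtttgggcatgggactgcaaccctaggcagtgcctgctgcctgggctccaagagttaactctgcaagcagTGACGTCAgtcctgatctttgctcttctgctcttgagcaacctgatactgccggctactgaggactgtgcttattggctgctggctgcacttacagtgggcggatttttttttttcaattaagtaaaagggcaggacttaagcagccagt
Slc25a33: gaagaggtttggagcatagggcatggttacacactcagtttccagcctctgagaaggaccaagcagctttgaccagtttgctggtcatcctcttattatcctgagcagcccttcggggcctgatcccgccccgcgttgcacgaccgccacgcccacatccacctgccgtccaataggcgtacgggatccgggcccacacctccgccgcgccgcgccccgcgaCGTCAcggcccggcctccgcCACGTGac
The Slc25a25 window held TGACGTCA starting at base 101. The windows of 2 other annotated Slc25a25 starts held none of the motifs searched, so of these starts the one with a match is shown. Which start gave the array signal was not tested. The Slc25a33 window held TGACG on the opposite strand at base 223 and CACGTG at base 243.

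Promoters were in the table for 36 of the 46 members, with 46 windows in all. On both strands, TGACGTCA occurred in 1.55% of the 32851 windows of all genes and in 2 of the 46 member windows. These belonged to Slc25a25 and Slc25a36, the second of which did not pass the test at any time on the deposited scale. TGACG, which also lies inside TGACGTCA, occurred in 17.8% of all windows and in 11 of the 46 member windows, from 10 members. CACGTG occurred in 6.02% of all windows and in 8 of the 46 member windows, from 7 members. TGANTCA, the AP-1 site, occurred in 6.75% of all windows and in 2 of the 46, from 2 members. AAGGTCA, the site of estrogen-related receptors, occurred in 4.08% of all windows and in 1 of the 46 member windows, that of Slc25a34. The palindrome known to bind NRF1 occurred in 0.782% of all windows and in 0 members. These are matches of letters in a short window and do not show that a factor binds there.

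Among the other cofactor carriers, those of coenzyme A, NAD and S-adenosylmethionine were called lower at 1 or more times. Slc25a42, which brings coenzyme A into the matrix, had log2 signals of 7.26, 7.73, 6.95 and 8.30 at 6 h, 7.89, 7.50, 6.71 and 7.61 at 24 h and 7.72, 8.16, 8.81 and 7.80 at 72 h, against 9.13, 9.76, 9.22 and 9.38 in sham hearts. Every reperfused array lay below every sham array. Slc25a42 fell, with changes of -1.82 ± 0.29 (adjusted p = 0.00013) at 6 h, -1.95 ± 0.29 (adjusted p = 5.21e-05) at 24 h and -1.25 ± 0.29 (adjusted p = 0.00392) at 72 h, which are 3.52-fold, 3.85-fold and 2.38-fold lower than sham. Slc25a26, the S-adenosylmethionine carrier, had 8.12, 8.48, 8.49 and 8.37 at 6 h, 8.34, 8.02, 7.85 and 8.40 at 24 h and 8.13, 8.09, 8.29 and 7.73 at 72 h, against 8.66, 8.66, 8.63 and 8.81 in sham hearts. All reperfused arrays lay below sham. Slc25a26 fell, with changes of -0.53 ± 0.16 (adjusted p = 0.0155) at 24 h and -0.63 ± 0.16 (adjusted p = 0.00646) at 72 h. Its change at 6 h was -0.32 (adjusted p = 0.181), although both spike-in centrings called Slc25a26 lower at 6 h. The call at 24 h ended without 24 h replicate 16 (-0.43, adjusted p = 0.0642) and under hybridization centring (-0.22), and that at 72 h ended under both centrings (-0.13 and -0.44). Slc25a51, the mitochondrial NAD carrier, averaged 11.95 ± 0.38, 12.23 ± 0.18 and 12.44 ± 0.07 at 6, 24 and 72 h, against 12.65 ± 0.12 in sham hearts (SD, n = 4 each). It fell at 6 h, with a change of -0.70 ± 0.16 (adjusted p = 0.00406), and the change at 24 h was -0.42 ± 0.16 (adjusted p = 0.0694). Slc25a16, which has been linked to coenzyme A supply, fell at 24 h, with a change of -0.63 ± 0.20 (adjusted p = 0.0284), a call that ended without 24 h replicate 16 (-0.38), sham replicate 3 (-0.54) or sham replicate 5 (-0.59), and under hybridization centring. Slc25a17, the peroxisomal carrier of coenzyme A, FAD and NAD, and Slc25a32, the folate and FAD carrier, were not called against sham on the deposited scale, although both spike-in centrings called Slc25a17 lower at 6 h and hybridization centring called it higher at 24 and 72 h.

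Of the 5 carboxylate and acylcarnitine carriers, 1 was higher and 3 were lower at 24 h (1 and 1 under hybridization centring), beside 13.8% higher and 12.3% lower over all genes. Slc25a20, which exchanges acylcarnitines for carnitine and so feeds fatty acid oxidation, had log2 signals of 14.29, 14.23, 13.92 and 14.15 at 6 h, 13.51, 12.81, 13.66 and 13.83 at 24 h and 13.23, 13.77, 13.99 and 13.60 at 72 h, against 14.41, 14.46, 14.44 and 14.27 in sham hearts. All arrays at 24 and 72 h lay below sham, and 24 h replicate 15 was lowest. Slc25a20 fell, with changes of -0.95 ± 0.20 (adjusted p = 0.00116) at 24 h and -0.75 ± 0.20 (adjusted p = 0.00895) at 72 h, and at 6 h its change was -0.25 ± 0.20 (adjusted p = 0.447). The call at 72 h ended under both spike-in centrings, at -0.26 and -0.56. Slc25a1, which exports citrate from the matrix for fatty acid and sterol synthesis, had 7.44, 7.51, 7.48 and 7.11 at 6 h, 8.74, 9.17, 8.56 and 7.54 at 24 h and 9.01, 8.99, 8.47 and 8.74 at 72 h, against 6.77, 6.80, 7.33 and 8.05 in sham hearts. At 72 h all arrays lay above sham, while 24 h replicate 17 and sham replicate 5 made the groups overlap at 24 h. Slc25a1 rose by 1.27 ± 0.29 (adjusted p = 0.00286) at 24 h and 1.57 ± 0.29 (adjusted p = 0.000596) at 72 h, which are 2.41-fold and 2.96-fold, and was at 0.15 at 6 h. Slc25a11, the oxoglutarate/malate carrier of the malate-aspartate shuttle, averaged 17.06 ± 0.09, 16.62 ± 0.35 and 16.77 ± 0.17 at 6, 24 and 72 h, against 17.20 ± 0.10 in sham hearts (SD, n = 4 each). It fell at 24 h, with a change of -0.58 ± 0.16 (adjusted p = 0.00916), and was at -0.28 (adjusted p = 0.241) under hybridization centring. Slc25a10, the dicarboxylate carrier, was lower at 6 h, with a change of -0.66 ± 0.22 (adjusted p = 0.0424), a call that ended when any of 7 single arrays was left out, with changes from -0.72 to -0.48. Hybridization centring called Slc25a10 higher at 72 h. Slc25a21, the oxodicarboxylate carrier, was called lower at 24 h, but its signals were below background in both groups.

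Of the 11 amino acid and glutathione carriers, 0 were called higher and 4, 5 and 3 lower at 6, 24 and 72 h (36.4%, 45.5% and 27.3%), beside 12.3%, 12.3% and 10.3% of all genes lower. Hybridization centring gave 0 higher and 8 lower, 1 higher and 4 lower, and 3 higher and 1 lower at these times, and poly-A centring 0 higher and 8, 5 and 1 lower. The aspartate/glutamate carriers, the other arm of the malate-aspartate shuttle, both fell at 24 h. Slc25a12, the form typical of heart, muscle and brain, had log2 signals of 15.76, 15.36, 15.58 and 15.55 at 6 h, 14.83, 14.70, 14.53 and 14.97 at 24 h and 15.30, 15.51, 15.46 and 15.23 at 72 h, against 15.85, 16.04, 15.90 and 15.86 in sham hearts. All reperfused arrays lay below sham, and the 24 h arrays lay below all others. Slc25a12 fell, with changes of -1.15 ± 0.14 (adjusted p = 4.10e-06) at 24 h and -0.54 ± 0.14 (adjusted p = 0.00731) at 72 h, and its change at 6 h was -0.35 ± 0.14 (adjusted p = 0.0813). The call at 72 h ended under both spike-in centrings, at -0.04 and -0.35, and both called Slc25a12 lower at 6 h. Slc25a13, the form known from liver, had 12.83, 12.62, 12.26 and 12.90 at 6 h, 12.09, 11.27, 11.19 and 11.80 at 24 h and 12.48, 12.48, 12.86 and 11.97 at 72 h, against 12.56, 12.84, 12.88 and 13.10 in sham hearts. The 24 h arrays lay below all sham arrays, and the 6 and 72 h arrays overlapped sham. Slc25a13 fell, with a change of -1.26 ± 0.22 (adjusted p = 0.000223) at 24 h, and its changes were -0.19 at 6 h and -0.40 at 72 h. Of the 7 cardiomyocyte markers, 3 were lower and 4 not called at 24 h, with changes from -0.93 to -0.02 and a median of -0.38. Myh6 was at -0.58 ± 0.13 (adjusted p = 0.00253) and Ryr2, the lowest, at -0.93 ± 0.15 (adjusted p = 8.63e-05). Hybridization centring left 1 of the 7 lower. The part of cell content in the falls of the carriers was not tested.

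Slc25a22, which takes glutamate into the matrix, had log2 signals of 7.73, 7.28, 7.32 and 8.22 at 6 h, 7.13, 7.53, 7.42 and 6.86 at 24 h and 7.59, 7.14, 8.15 and 7.86 at 72 h, against 9.26, 9.75, 9.05 and 8.54 in sham hearts. Each reperfused array lay below each sham array. Slc25a22 fell, with changes of -1.51 ± 0.26 (adjusted p = 0.000292) at 6 h, -1.92 ± 0.26 (adjusted p = 2.14e-05) at 24 h and -1.47 ± 0.26 (adjusted p = 0.000401) at 72 h. Its relative Slc25a18 was below background. Slc25a39, which imports glutathione into mitochondria, had 11.68, 11.76, 11.31 and 12.01 at 6 h, 11.88, 11.97, 11.30 and 11.78 at 24 h and 12.19, 11.92, 12.00 and 11.92 at 72 h, against 13.05, 12.65, 12.57 and 12.53 in sham hearts. Again no reperfused array reached a sham array. Slc25a39 fell, with changes of -1.01 ± 0.18 (adjusted p = 0.000293) at 6 h, -0.96 ± 0.18 (adjusted p = 0.000366) at 24 h and -0.69 ± 0.18 (adjusted p = 0.00748) at 72 h, the last of which ended under both centrings (-0.20 and -0.50). On the deposited scale its paralog Slc25a40 was lower at 6 h only, with a change of -0.55 ± 0.16 (adjusted p = 0.0188). That call ended without 6 h replicate 7 (-0.50), 6 h replicate 10 (-0.42) or sham replicate 2 (-0.49). Hybridization centring called Slc25a40 higher at 72 h. Slc25a38, which supplies glycine for heme synthesis, averaged 8.59 ± 0.27, 9.03 ± 0.22 and 9.30 ± 0.20 at 6, 24 and 72 h, against 9.54 ± 0.09 in sham hearts (SD, n = 4 each). It fell at 6 h, with a change of -0.96 ± 0.16 (adjusted p = 0.000184) and at 24 h with -0.51 ± 0.16 (adjusted p = 0.0217), and the 24 h call ended without 24 h replicate 16 (-0.42), sham replicate 4 (-0.49) or sham replicate 5 (-0.48). Slc25a44, the branched-chain amino acid carrier, and Slc25a15, the ornithine carrier, were not called against sham on the deposited scale, although both spike-in centrings called both lower at 6 h, and hybridization centring called Slc25a44 higher at 24 h and Slc25a15 higher at 72 h. Slc25a2 and Slc25a29, carriers of ornithine and basic amino acids, were below background.

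The iron carriers were not called in any comparison on the deposited scale, although both spike-in centrings called Slc25a37 lower at 6 h than in sham and higher at 24 h than at 6 h, and hybridization centring called Slc25a28 higher at 24 and 72 h. Slc25a37, mitoferrin 1, had log2 signals of 6.34, 7.27, 5.34 and 6.40 at 6 h, 7.08, 7.13, 7.33 and 6.71 at 24 h and 6.78, 6.61, 7.003 and 6.77 at 72 h, against 7.24, 6.37, 6.80 and 7.06 in sham hearts. The values straddled background and the groups overlapped, with 6 h replicate 10 lowest. Its changes were -0.53 ± 0.28 (adjusted p = 0.226), 0.19 ± 0.28 (adjusted p = 0.677) and -0.08 ± 0.28 (adjusted p = 0.883) at 6, 24 and 72 h. Slc25a28, mitoferrin 2, averaged 8.53 ± 0.36, 8.36 ± 0.10 and 8.23 ± 0.06 at 6, 24 and 72 h, against 8.11 ± 0.29 in sham hearts (SD, n = 4 each). Its change of 0.42 ± 0.17 (adjusted p = 0.1) at 6 h missed the threshold.

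Of the relatives of the uncoupling proteins, Slc25a27 had log2 signals of 6.34, 6.60, 5.80 and 6.83 at 6 h, 7.10, 6.61, 6.17 and 6.95 at 24 h and 7.56, 6.74, 6.90 and 6.94 at 72 h, against 7.08, 7.48, 7.44 and 7.71 in sham hearts. The 6 h arrays all lay below sham, with 1 of 4 above background, and the 24 h arrays overlapped sham. Slc25a27 fell at 6 h, with a change of -1.04 ± 0.24 (adjusted p = 0.00336) and at 24 h with -0.72 ± 0.24 (adjusted p = 0.0296). The 24 h call ended without any 1 of 5 arrays, with changes from -0.72 to -0.54, and under hybridization centring (-0.41). Slc25a14 was called lower at 6 h with both groups below background, and Slc25a30 was not called.

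Members with less settled substrates also changed. Slc25a34, an orphan carrier whose yeast relative moves oxaloacetate, had log2 signals of 6.06, 7.33, 6.26 and 6.44 at 6 h, 5.74, 4.79, 5.21 and 5.65 at 24 h and 6.07, 6.44, 6.28 and 6.76 at 72 h, against 6.91, 7.08, 6.77 and 6.95 in sham hearts. Every 24 h array lay below background and below every sham array. The 72 h arrays also lay below every sham array, and only the highest, at 6.76, was close to the lowest sham value of 6.77. Slc25a34 fell at 24 h, with a change of -1.58 ± 0.24 (adjusted p = 7.05e-05). Since the 24 h arrays were below background, sham can be stated only as at least 1.12-fold higher. Its changes at 6 and 72 h were -0.41 and -0.54 and did not pass the test on the deposited scale, although poly-A centring called Slc25a34 lower at 6 h. Its relative Slc25a35 averaged 6.88 ± 0.41, 7.90 ± 0.49 and 7.28 ± 0.14 at 6, 24 and 72 h, against 7.70 ± 0.33 in sham hearts (SD, n = 4 each) and was lower at 6 h, with a change of -0.82 ± 0.23 (adjusted p = 0.0162), a call that ended without sham replicate 5 (-0.65) or 6 h replicate 10 (-0.66). Slc25a46, an outer membrane member that takes part in mitochondrial fusion and fission, averaged 15.04 ± 0.06, 15.09 ± 0.04 and 14.62 ± 0.14 at 6, 24 and 72 h, against 15.20 ± 0.17 in sham hearts. It fell at 72 h, with a change of -0.58 ± 0.13 (adjusted p = 0.00219), and this call ended under both spike-in centrings (-0.09 and -0.39). Slc25a45 averaged 5.36 ± 0.27, 6.62 ± 0.25 and 6.68 ± 0.35 at 6, 24 and 72 h, against 5.79 ± 0.14 in sham hearts, with every group mean below background. Single arrays at 24 and 72 h, 1 in each, stood above it, and the changes were 0.83 ± 0.18 (adjusted p = 0.0019) and 0.88 ± 0.18 (adjusted p = 0.00147). Slc25a54 was called lower at 72 h, with a change of -0.52 ± 0.18 (adjusted p = 0.047), with both groups below background, and the call ended when any of 14 single arrays was left out, with changes from -0.58 to -0.37. Slc25a43, Slc25a47, Slc25a48 and Slc25a53 were below background and not called on the deposited scale. Hybridization centring called Slc25a43 higher at 72 h than in sham and Slc25a48 higher at 24 h than at 6 h.

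**Figure D3:**
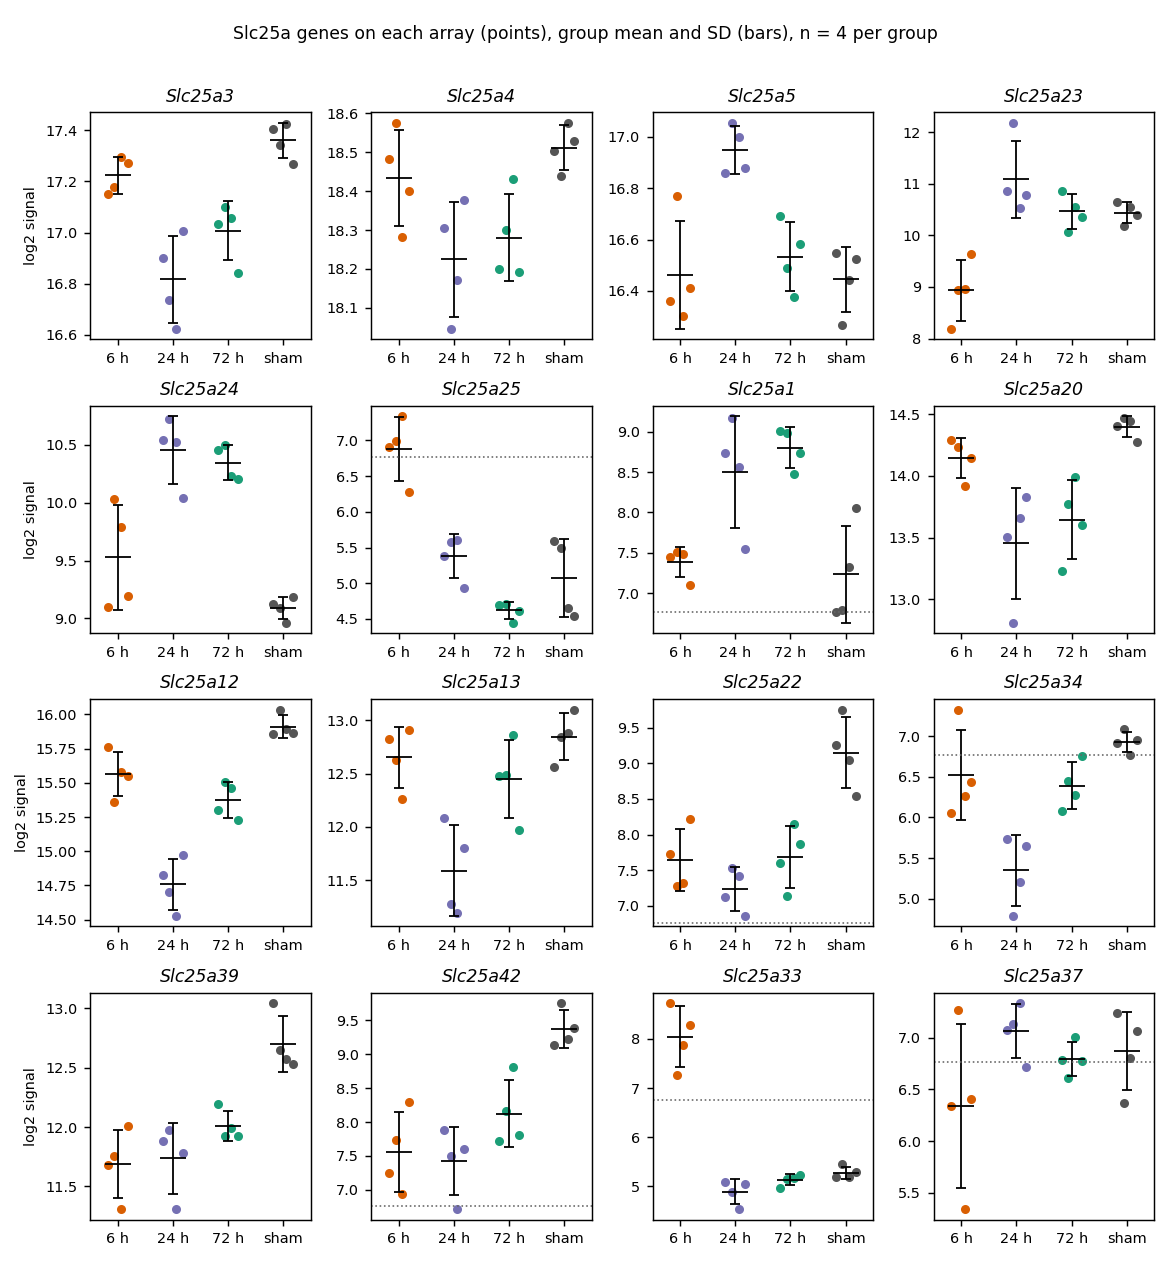
Log2 signal of 16 Slc25a genes on each array (points) at 6, 24 and 72 h of reperfusion and in sham hearts, with the group mean and SD (bars, n = 4 per group) and the background level of 6.76 as a dotted line where it falls in the panel. Slc25a33 and Slc25a25 are highest at 6 h, Slc25a24 and Slc25a1 are high at 24 and 72 h, Slc25a12, Slc25a13 and Slc25a34 are lowest at 24 h, and Slc25a22, Slc25a39 and Slc25a42 lie below sham on every reperfused array.

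Between 6 and 24 h, 12 members were called higher, beside 17.3% of all genes, and 9 lower, beside 10.9%. Slc25a23 rose by 2.16 ± 0.31 (adjusted p = 3.38e-05), Slc25a1 by 1.12, Slc25a35 by 1.02 and Slc25a24 by 0.93. Slc25a45 was called higher with both group means below background. The other 7 higher members were Slc25a5, Slc25a14, Slc25a15, Slc25a17, Slc25a38, Slc25a40 and Slc25a44, of which Slc25a14 also had both group means below background. Besides Slc25a33, the lower members included Slc25a25 at -1.51 ± 0.25 (adjusted p = 0.000122), with every 24 h array below background and so only a bound of at least 1.09-fold. They also included Slc25a34, with both group means below background, Slc25a13 at -1.06 ± 0.22 (adjusted p = 0.00101) and Slc25a12 at -0.81 ± 0.14 (adjusted p = 0.000174). The other 4 lower members were Slc25a3, Slc25a11, Slc25a20 and Slc25a21, the last with both group means below background. Centring on the hybridization spike-ins gave 24 higher and 4 lower members in this comparison, and poly-A centring 13 higher and 5 lower. Hybridization centring turned the sign of Slc25a3, Slc25a11 and Slc25a21, to 0.12, 0.09 and 0.07, and poly-A centring also ended their calls. The call of Slc25a12 ended under hybridization centring (-0.28, adjusted p = 0.182), and that of Slc25a20 ended under both centrings (-0.16 and -0.45). Leaving out 1 array ended the calls of Slc25a3 (without 24 h replicate 15 or 16), Slc25a20 (without 24 h replicate 15, -0.48), Slc25a15 (3 arrays), Slc25a38 (5 arrays), Slc25a21 (6 arrays) and Slc25a11 (9 arrays).

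Between 24 and 72 h, 3 members were called higher, beside 6.85% of all genes, and 2 lower, beside 6.07%. The aspartate/glutamate carriers Slc25a12 and Slc25a13 rose by 0.62 ± 0.14 (adjusted p = 0.00415) and 0.86 ± 0.22 (adjusted p = 0.0114), and Slc25a34 rose by 1.04 ± 0.24 (adjusted p = 0.00656) with both groups below background. The rise of Slc25a13 missed the threshold when 24 h replicates 16 and 17 were both left out (0.77, adjusted p = 0.0763). These 3 calls were kept under both spike-in centrings. Slc25a46 was lower, with a change of -0.48 ± 0.13 (adjusted p = 0.0151) and Slc25a25 with one of -0.76 ± 0.25 (adjusted p = 0.0475), and neither call was kept under either centring. The call of Slc25a46 ended without 72 h replicate 21 (-0.44), and that of Slc25a25, below background in both groups, ended without any 1 of 9 arrays. Centring on the poly-A spike-ins gave 6 higher and 0 lower members, against 3 and 0 with the hybridization spike-ins. Of the 14 members lower at 24 h, 13 had a mean at 72 h between those of 24 h and sham. Of the same 14, 3 were called higher at 72 h than at 24 h, and 6 were still called lower at 72 h against sham. Because the 14 were chosen for low means at 24 h, means nearer to sham at 72 h are partly expected from that choice. No share over all genes is given beside these counts.

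Because the difference of 2 genes within an array does not move when that array is centred, although it can under quantile normalization, related carriers were set against each other on each array, in 8 pairs at 3 times. Two-sided exact permutation tests of 4 against 4 arrays cannot go below p = 0.0286, and the lowest adjusted p over the 24 tests was 0.0762, so no pair passed after adjustment. Slc25a5 minus Slc25a4 was -1.28 ± 0.24 at 24 h and -2.07 ± 0.10 in sham hearts (SD, n = 4 each). These are differences of 2 probe set signals and do not give the ratio of the translocase forms in a group. Between the groups the shift was 0.79 with no overlap (exact p = 0.0286, adjusted p = 0.0762). At 6 and 72 h the shift was 0.09 (exact p = 0.286) and 0.32 (exact p = 0.0857). Slc25a24 minus Slc25a23 shifted by 1.95, 0.72 and 1.23 at 6, 24 and 72 h (exact p = 0.0286, 0.0857 and 0.0286). Slc25a25 minus Slc25a23 shifted by 3.32 at 6 h, and Slc25a33 minus Slc25a36 by 2.85 at 6 h (exact p = 0.0286 for both), but Slc25a25 and Slc25a33 were below background on every sham array, so the sizes of these 2 shifts were not measured. Slc25a40 minus Slc25a39 shifted by 0.46, 0.99 and 0.76 at 6, 24 and 72 h, without overlap at any time (exact p = 0.0286 for each). Slc25a13 minus Slc25a12 shifted by only 0.16, -0.10 and 0.14 (exact p = 0.457, 0.629 and 0.514). Slc25a22 minus Slc25a18 shifted by -1.28, -1.69 and -1.10 (exact p = 0.0571, 0.0286 and 0.0857), with Slc25a18 below background. Slc25a37 minus Slc25a28 shifted by -0.95, -0.05 and -0.20 (exact p = 0.114, 0.943 and 0.514).

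**Figure D4:**
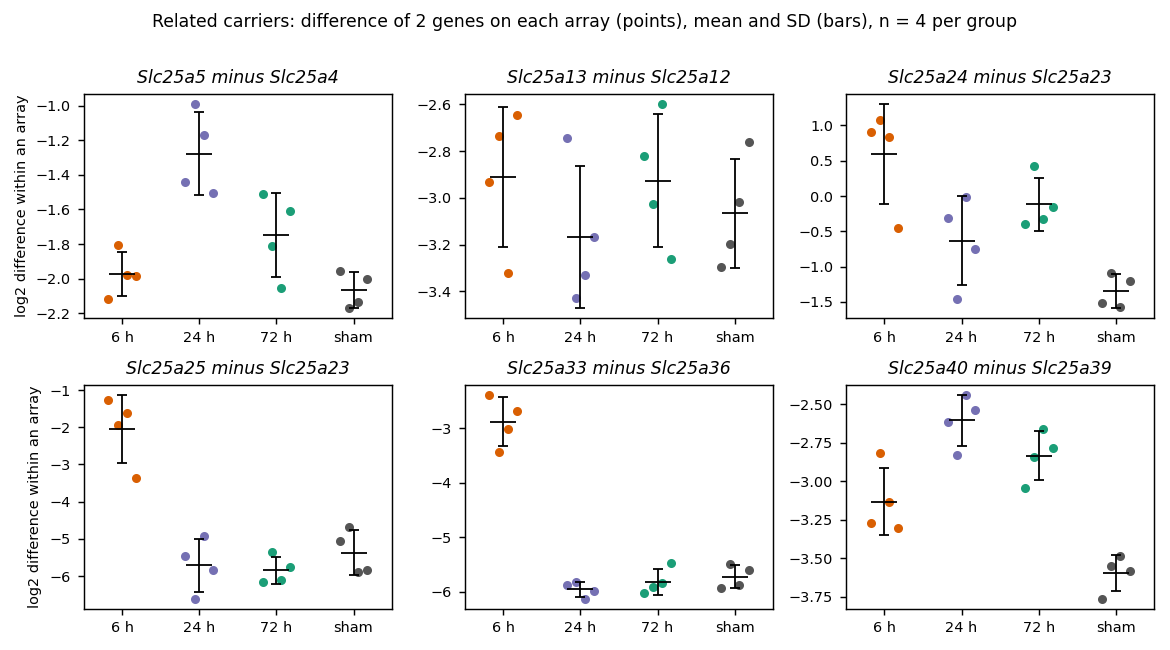
Log2 difference of 2 related carriers within each array (points) at 6, 24 and 72 h of reperfusion and in sham hearts, with the group mean and SD (bars, n = 4 per group). The difference of Slc25a5 and Slc25a4 is least negative at 24 h (-1.28 against -2.07 in sham hearts), while that of Slc25a13 and Slc25a12 overlaps between all groups.

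The genes around the carriers were followed in 4 lists. Of the 7 measured regulators of mitochondrial genes, 1 was higher and 1 lower at 6 h, 0 higher and 4 lower at 24 h, and 1 higher and 5 lower at 72 h, beside 7.92% higher and 12.3% lower, 13.8% and 12.3%, and 11.5% and 10.3% of all genes at these times. Ppara, the receptor that drives fatty acid oxidation genes, fell, with changes of -2.39 ± 0.27 (adjusted p = 2.83e-06) at 24 h and -1.77 ± 0.27 (adjusted p = 7.96e-05) at 72 h. Ppargc1b, a coactivator of mitochondrial genes, fell by 2.09 ± 0.19 (adjusted p = 1.75e-07) at 6 h. Esrrg, an estrogen-related receptor, fell, with changes of -1.09 ± 0.20 (adjusted p = 0.000427) at 24 h and -1.14 ± 0.20 (adjusted p = 0.000346) at 72 h, and Ppargc1a, the related coactivator, fell, with a change of -0.97 ± 0.21 (adjusted p = 0.00175) at 24 h. The list median was -0.32, -0.72 and -0.69 at 6, 24 and 72 h. Both spike-in centrings gave 4 lower at 6 h. Hybridization centring left 1 higher and 3 lower at 24 h, with the 24 h falls of Ppara, Esrrg and Ppargc1a kept, and 2 higher and 2 lower at 72 h.

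Of the 16 genes that import carriers into the inner membrane, 1 was higher and 1 lower at 6 h, 2 higher and 0 lower at 24 h, and 0 higher and 3 lower at 72 h. These are 6.25% of the list in each direction at 6 h, beside 7.92% higher and 12.3% lower over all genes, 12.5% higher at 24 h, beside 13.8%, and 18.8% lower at 72 h, beside 10.3%. Tomm5, a small subunit of the outer membrane pore, was lower at 72 h, with a change of -0.93 ± 0.23 (adjusted p = 0.00637), and Timm10 and Timm8a1, chaperones of the intermembrane space, with changes of -0.78 ± 0.16 (adjusted p = 0.00136) and -0.57 ± 0.17 (adjusted p = 0.0217). Timm9, the partner of Timm10, was called higher at 24 h with both group means below background. Centring on the hybridization spike-ins gave 0 higher and 2 lower at 6 h, 6 higher at 24 h and 1 higher and 0 lower at 72 h, and centring on the poly-A spike-ins gave 0 higher and 4 lower at 6 h, 0 higher and 1 lower at 24 h and 0 higher and 2 lower at 72 h. The list median was -0.13, 0.17 and -0.30, and 0.20 at 72 h under hybridization centring, so its direction at 72 h turned with the scaling.

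Of 17 measured mitochondrial transporters outside the family, 1 was higher and 4 lower at 6 h, 3 higher and 6 lower at 24 h, and 3 higher and 3 lower at 72 h. These are 5.88% higher and 23.5% lower at 6 h, beside 7.92% and 12.3% of all genes, 17.6% and 35.3% at 24 h, beside 13.8% and 12.3%, and 17.6% in each direction at 72 h, beside 11.5% and 10.3%. Sfxn1, the mitochondrial serine carrier, rose by 1.15 ± 0.18 (adjusted p = 0.000106) at 24 h, and Sfxn3, its relative, by 1.13 ± 0.21 (adjusted p = 0.000442) over a sham mean below background. Abcb8 and Abcb10, ABC transporters of the inner membrane, fell, with changes of -1.16 ± 0.18 (adjusted p = 5.84e-05) and -1.02 ± 0.22 (adjusted p = 0.00147) at 24 h, when the mean of Abcb10 was below background. These 4 calls were kept under both spike-in centrings, which left 4 higher and 2 lower at 24 h with the hybridization spike-ins and 3 higher and 6 lower with the poly-A spike-ins. At 6 h the hybridization and poly-A centrings gave 0 higher and 6 and 7 lower, and at 72 h they gave 9 and 4 higher and 0 lower. Of 4 measured relatives of the family under other names, Ucp3, the uncoupling protein of muscle, fell at 24 h, with a change of -2.29 ± 0.36 (adjusted p = 8.46e-05) and was higher at 72 h than at 24 h by 2.05 ± 0.36 (adjusted p = 0.00063). Mtch1, an outer membrane relative, was lower at 6 h, with a change of -0.52 ± 0.17 (adjusted p = 0.0374), and these 2 were the only calls of that list against sham on the deposited scale, where hybridization centring also gave 1 higher at 72 h.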

How the data were processed

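Gene expression in hearts was measured on Affymetrix arrays, 1 array per heart and 4 hearts per group, as stated in the labels. The deposited values are log2 signals of 28846 probe sets on 16 arrays, which the authors made with Affymetrix Expression Console, per the submitters' processing notes. The sources used here give neither its version nor its summarization method. A log base of 2 was assumed, since none is stated. The deposited log2 values were used without further scaling, and array medians lay between 5.84 and 5.95. The series title and design text name other hours and another array than the sample labels and probe set identifiers, which were followed.

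Names came from the platform's annotation. Of 28846 probe sets, 19572 carried a gene symbol, and the probe set with the highest mean was kept for 55 genes with several, leaving 19505 genes. No filter on dim genes was used, and 5222 negative controls set the background level. Group means over all 16 arrays were fitted in limma 3.58.1 (lmFit, then eBayes; R 4.3.3), which left 12 residual degrees of freedom and added 6.943 from the prior, and Benjamini-Hochberg adjustment ran over all genes, at a threshold of 0.05. The fit was tested on simulated data. Replicates are separate hearts, no replicate number is shared between groups, and 0 pairs of arrays held identical values. Members named with all arrays were 7 fixed by name and, in each comparison with sham, up to 5 largest rises and 5 largest falls among called members above background whose arrays did not overlap. List genes were named for up to 4 largest called changes. The members, lists and rules were chosen with earlier results of these data known. Promoter windows were read from a RefSeq table. Alternatives were quantile normalization, median centring, centring on each of 2 sets of spike-ins, averaging probe sets, a filter at the median, trend and robust moderation, array weights, fits of 2 groups, and leaving out arrays.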

Additional observations from a re-analysis of the deposited data

Results flagged for a closer look

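In 4 of the 184 groups of 4 arrays examined (46 members in 4 groups), 1 array stood far from the other 3 by Dixon's test, where chance alone gives about 5% of groups. Slc25a16 was high on 72 h replicate 22 at 11.28, while the other 72 h arrays lay between 10.74 and 10.80. Slc25a35 was high on sham replicate 5 at 8.20, while the other sham arrays lay between 7.51 and 7.57. Slc25a44 was high on 72 h replicate 23 at 7.83, with the others between 7.42 and 7.48. Slc25a43, below background throughout, was low on 72 h replicate 21 at 4.03, with the others between 4.63 and 4.73.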

How the results depend on the processing

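The counts of called members depended mainly on the scaling of the arrays. Centring on the hybridization spike-ins gave 19 lower members at 6 h in place of 11, 8 higher and 7 lower at 24 h in place of 4 and 14, 12 higher and 2 lower at 72 h in place of 3 and 8, 24 higher and 4 lower between 6 and 24 h in place of 12 and 9, and 0 lower between 24 and 72 h in place of 2. Centring on the poly-A spike-ins gave 23 lower at 6 h, 2 lower at 72 h, 5 lower between 6 and 24 h, and 6 higher and 0 lower between 24 and 72 h. The filter at the median left 0 higher at 6 h, because it removes both members, and array weights gave 5 lower between 24 and 72 h. Leaving out both 24 h replicates 16 and 17 gave 1 lower between 24 and 72 h. Leaving out 1 array at a time gave ranges of 2 to 3 higher and 9 to 14 lower at 6 h, 4 to 5 and 10 to 15 at 24 h, and 3 to 3 and 7 to 9 at 72 h. Between 6 and 24 h the ranges were 10 to 13 higher and 5 to 10 lower, the lowest without 24 h replicate 15, and between 24 and 72 h they were 3 to 3 higher and 0 to 3 lower. Hybridization centring turned the sign of 6, 10 and 24 of the 46 changes at 6, 24 and 72 h against sham, of 18 between 6 and 24 h and of 8 between 24 and 72 h. Of these, the ones called on either scale were those of Slc25a36 at 72 h against sham (0.44), and, between 6 and 24 h, of Slc25a2 (0.52), Slc25a36 (0.45), Slc25a3 (0.12), Slc25a11 (0.087) and Slc25a21 (0.072). The cause was not tested. The F test counted 25 to 38 members over all settings. No paired analysis was possible because no replicate number is shared between groups. Signals below background limit 13 members in all groups and 6 more in some groups.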
